A study of Mus musculus with 6 samples.

Results

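Type I interferon sensors and response genes were followed in mouse splenic B cells on 6 single-colour arrays, 3 of Control cells (normal B cells) and 3 of TRAF3KO cells (TRAF3-/-, premalignant B cells). The 46 genes were chosen by name for their role in sensing nucleic acids, in signalling from the type I interferon receptor or in the response to it. Of these, 43 had a probe named for them and 37 passed the filter on dim probes, among 10304 genes tested. The comparison asks whether the interferon pathway differed between B cells lacking TRAF3 and normal B cells. The sources used here give neither strain nor age, nor what drove the deletion, nor whether each array held a separate mouse. The p-values therefore measure only how these samples spread, and that spread may be in part technical. Sex-linked transcripts, given below, placed both inferred sexes in each group, so neither group came from a single mouse.

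Values are log2 intensities as deposited, where 0 is the floor of the table and 16.15 its top. Every array had between 31.3% and 31.4% of its probes at the floor. A gene was tested where its probe lay above the 40th percentile of its array on at least 3 of the 6 arrays, and the brightest such probe stood for the gene. The percentile corresponds to about 15.6 intensity units. Array probes differ in how brightly they bind, so levels of different genes are not compared. The cells carried B cell markers. Cd79a and Cd79b, the signalling chains of the B cell receptor, lay between 15.89 and 16.12 on every array, near the top. Of 10 B cell markers listed, 9 were tested. Fcrla was called lower in TRAF3KO (log2 difference -0.32, adjusted p = 0.011 by limma) and 0 were called higher. The summed intensity of the B cell markers ran from 251198 to 254870 in Control and from 232250 to 244128 in TRAF3KO. In such bulk samples fewer cells of a type and less RNA per cell cannot be told apart. No probe carried the symbol Traf3, so the deletion itself was not checked.

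Type I interferons are secreted proteins made when cells sense viral or misplaced nucleic acid. RNA sensors such as RIG-I (Ddx58) and MDA5 (Ifih1) signal through the mitochondrial adaptor MAVS to switch on the transcription factors IRF3 and IRF7, which drive interferon genes. Interferon then binds a receptor made of IFNAR1 and IFNAR2, and a complex that includes STAT2 and IRF9 binds the interferon-stimulated response element (ISRE) in the promoters of the induced genes. TRAF3 takes part in the step between MAVS or the endosomal toll-like receptors and the kinases that activate IRF3 and IRF7.

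Promoters from RefSeq on GRCm38.p6 were searched for the letters of that element, because interferon-induced genes are known to carry it. The window ran from 250 bases before to 50 bases after the annotated start, and its core, GAAA and GAAA separated by NN (any bases), was looked for on both strands. It was found for 13 of 23 induced genes with a promoter in the table and for 4 of 13 sensors, receptor chains and factors. Over all genes with a promoter the share was 3.99%, and over all promoters 3.44%. The gamma-activated site, searched as TTCNNNGAA, was found for 11 of 36 members against 9.55% of all genes. One form of the kappaB site, GGGA and TTCC separated by NN, was found for 4 of 36 members against 1.63% of all genes, the members being Ifit2, Isg20, Gbp2 and Cxcl10. An ISRE core match and a gamma-activated site match overlapped in 1 of 45 member promoters. A match describes these letters and is no evidence of binding.

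The stretches below are shown for 6 induced genes whose values recur in the results. Each is 60 bases long, lies before the start and is written 5′ to 3′ on the strand of the gene, with matches to the ISRE core, also of the opposite strand, in capitals. Adjacent matches overlap in Isg15, Bst2, Oas1g and Gbp3.
Isg15, chr4:156200856-156200915, minus strand: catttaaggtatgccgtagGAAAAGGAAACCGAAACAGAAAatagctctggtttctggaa
Ifit3, chr19:34583365-34583424, plus strand: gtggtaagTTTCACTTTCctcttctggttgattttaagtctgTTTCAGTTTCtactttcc
Rsad2, chr12:26456538-26456597, minus strand: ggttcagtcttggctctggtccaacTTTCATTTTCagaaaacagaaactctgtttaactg
Bst2, chr8:71537565-71537624, minus strand: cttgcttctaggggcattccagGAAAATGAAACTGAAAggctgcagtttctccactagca
Oas1g, chr5:120887614-120887673, minus strand: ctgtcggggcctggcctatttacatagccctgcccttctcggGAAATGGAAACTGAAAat
Gbp3, chr3:142559977-142560036, plus strand: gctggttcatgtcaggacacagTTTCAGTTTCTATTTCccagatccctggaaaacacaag
Isg15 held 3 matches within this stretch, the first beginning 78 bases before the start. Ifit3, Bst2, Oas1g and Gbp3 held 2 each and Rsad2 held 1.

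None of the 37 tested members was called different between TRAF3KO and Control cells. Of the 37, 0 were called higher and 0 lower by limma at an adjusted p under 0.05, against 4.44% of all tested genes called (2.3% higher and 2.14% lower). At an unadjusted p under 0.05 there were 6 of 37 (16.2%), against 16.9% of all tested genes. Groups did not overlap for 4 of 37 (10.8%), against 22.4% of all tested genes, 11% higher and 11.4% lower. The lowest adjusted p of a member was 0.15, for Oas1g. The 95% intervals of 26 of the 37 differences lay wholly within a 2-fold change in either direction, so a larger change lay outside the interval of each of those genes. For the other 11 the arrays leave room for one.

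The sensors, receptor chains and factors had a median log2 difference (TRAF3KO minus Control, the direction of all differences here) of -0.11, with 5 of 14 above 0 and 9 below. The 23 tested induced genes had a median of 0.07, with 15 above 0 and 8 below. Over all tested genes the median was 0.004. The induced median depended on single arrays: it was -0.10 without Control replicate 1 and 0.23 without Control replicate 3. The median of sensors and factors lay between -0.12 and -0.05 in the 16 alternatives run.

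**Figure D1:**
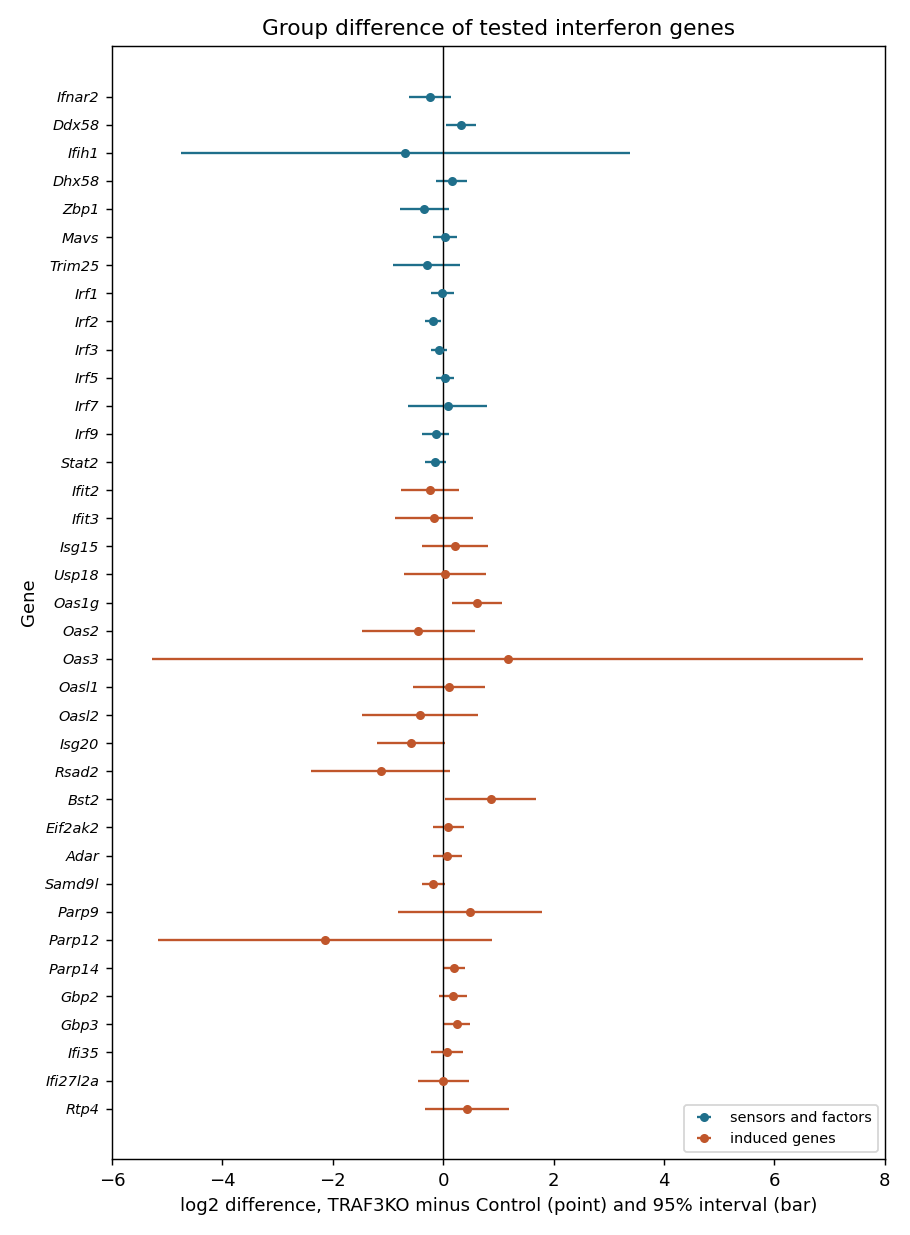
Log2 difference between the group means (TRAF3KO minus Control, 3 arrays each) for each of the 37 tested genes, with bars for the 95% interval from limma. Most bars cross 0, and the widest belong to Oas3, Ifih1 and Parp12, which were dim on some arrays.

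Of the receptor chains only Ifnar2 could be tested. It lay at 9.44, 9.51 and 9.13 on Control arrays 1, 2 and 3 and at 8.89, 9.01 and 9.46 on TRAF3KO arrays 1, 2 and 3, the order used for all such values. The groups overlapped, and the difference was -0.24 (95% interval -0.62 to 0.13). The probe for Ifnar1 lay at the floor on all 6 arrays, which says nothing of how much receptor the cells carry.

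Ddx58, which encodes the RNA sensor RIG-I, lay at 10.25, 10.62 and 10.72 in Control and at 10.82, 10.81 and 10.92 in TRAF3KO. Every TRAF3KO array was above every Control array, by a mean of 0.32 ± 0.12 (log2 difference and SE), but the gene was not called (adjusted p = 0.22 by limma). Without Control replicate 1 the difference was 0.18. Dhx58, encoding LGP2, a regulator of the RNA sensors, lay at 9.91, 10.15 and 10.36 and at 10.15, 10.36 and 10.38. Its lowest TRAF3KO value was inside the Control range, and its difference was 0.16 (95% interval -0.12 to 0.44). Mavs, the adaptor downstream of both RNA sensors, was the steadiest of this group, at 10.07, 10.21 and 9.98 in Control and 10.10, 10.17 and 10.10 in TRAF3KO. Its interval ran from -0.19 to 0.26. Zbp1, a sensor of left-handed nucleic acid that is itself induced by interferon, lay at 7.57, 7.93 and 7.95 and at 7.66, 7.42 and 7.33, a difference of -0.34 (-0.78 to 0.10). Trim25, a ubiquitin ligase that acts on RIG-I, differed by -0.29 (-0.90 to 0.31). Ifih1 was near the detection limit, at 4.41, 1.07 and 5.44 in Control and 0.00, 4.55 and 4.33 in TRAF3KO, and its interval of -4.76 to 3.39 spans large changes in both directions.

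Apart from Irf7, the transcription factors varied little on their brightest probes. Irf3, the factor that MAVS signalling activates, lay at 13.55, 13.40 and 13.37 in Control and 13.34, 13.37 and 13.39 in TRAF3KO. The groups overlapped and the interval was -0.23 to 0.07. Irf1, a factor induced by both interferon and NF-kB, lay at 13.13, 12.98 and 13.02 and at 13.25, 12.89 and 12.95, with an interval of -0.22 to 0.19. Irf5, which acts downstream of toll-like receptors in B cells, lay at 12.71, 12.63 and 12.69 and at 12.75, 12.80 and 12.58, with an interval of -0.13 to 0.20. For the brightest probe of these 3 genes a change of more than 1.2-fold in either direction lay outside the interval. Other kept probes of Irf1 differed by -0.03, -0.06, -0.16 and -0.24, and those of Irf3 by -0.03 and -0.19. On the Irf1 probe at -0.24 every TRAF3KO array was below every Control array.

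Irf2, a factor that can repress interferon-induced genes, and Stat2 were the members with every TRAF3KO array below every Control array. Irf2 lay at 14.96, 15.001 and 15.15 in Control and 14.89, 14.82 and 14.84 in TRAF3KO, a difference of -0.19 ± 0.06 (SE; limma adjusted p = 0.17). Stat2 lay at 11.05, 11.04 and 10.997 and at 10.98, 10.89 and 10.79, a difference of -0.14 ± 0.09. Neither was called. Irf9, the partner of STAT2 in the complex that binds the ISRE, lay at 12.00, 12.23 and 12.23 and at 11.84, 11.97 and 12.25. The groups overlapped (-0.38 to 0.11). The other kept probe of Irf9 differed by -0.34, at 10.67, 11.30 and 11.20 and at 10.41, 10.74 and 10.98. Irf7, which is both a driver of interferon genes and itself strongly induced by interferon, behaved unlike the other factors. It lay at 7.07, 6.91 and 8.25 in Control and 7.33, 7.51 and 7.65 in TRAF3KO, so that Control array 3 alone stood above all other arrays.

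Among induced genes, the IFIT family, whose proteins bind viral RNA, was covered by Ifit2 and Ifit3. Ifit3 lay at 9.78, 10.69 and 11.42 in Control and 10.17, 10.48 and 10.76 in TRAF3KO. The whole TRAF3KO group fell inside the Control range, and the difference was -0.16 (-0.87 to 0.54). Ifit2 lay at 8.32, 8.82 and 9.33 and at 8.39, 8.46 and 8.89, again inside the Control range. The probe for Ifit1 was at the floor on all arrays but TRAF3KO array 3, where it read 4.57.

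Isg15, a ubiquitin-like protein that is attached to other proteins after interferon exposure, lay at 7.91, 8.51 and 9.20 in Control and 8.56, 9.01 and 8.69 in TRAF3KO. Usp18, the protease that removes ISG15 and dampens the receptor, lay at 7.87, 8.93 and 9.43 and at 8.56, 8.54 and 9.22. For both, all TRAF3KO values lay between the lowest and highest Control values. Their differences were 0.21 (-0.39 to 0.82) and 0.03 (-0.72 to 0.77).

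Genes of the oligoadenylate synthetase family, some of whose members activate an RNA-degrading enzyme, did not move together. Oas1g lay at 8.35, 7.86 and 8.34 in Control and 8.74, 8.50 and 9.15 in TRAF3KO, with every TRAF3KO array above every Control array. Its difference of 0.61 ± 0.20 (SE) was not called (adjusted p = 0.15 by limma), and its other kept probe gave 1.02. The Oas1 genes are close copies of one another, so signal of one copy on a probe named for another was not tested. Oas2 lay at 6.33, 6.64 and 7.65 and at 5.60, 6.37 and 7.29, a difference of -0.45 (-1.47 to 0.57). Oasl1 lay at 7.42, 8.14 and 8.82 and at 8.07, 8.38 and 8.24, a difference of 0.10, with its other 2 kept probes at -0.29 and -0.14. Oasl2 lay at 6.51, 7.11 and 7.36 and at 5.86, 6.03 and 7.80, with TRAF3KO array 3 above the other TRAF3KO arrays. Oas3 passed the filter on exactly 3 arrays, reading 0.00, 0.00 and 4.88 in Control and 4.08, 0.00 and 4.31 in TRAF3KO, and carries no usable difference. The probe for Oas1a lay at the floor throughout.

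Rsad2, which encodes viperin, had the most negative difference of the members above the filter on all arrays. It lay at 9.19, 8.60 and 10.27 in Control and 6.79, 8.45 and 9.43 in TRAF3KO. The groups overlapped, and the difference of -1.13 ± 0.57 (SE) was not called (limma adjusted p = 0.37). It ranged from -1.73 without TRAF3KO replicate 3 to -0.41 without TRAF3KO replicate 1, with -0.67 without Control replicate 3. Bst2, tetherin, which holds budding virus at the cell surface and also marks plasmacytoid dendritic cells, went the other way at 5.84, 6.53 and 7.27 in Control and 7.48, 6.93 and 7.81 in TRAF3KO. Its difference of 0.86 ± 0.37 was not called either (adjusted p = 0.28), and the groups overlapped through Control array 3. Without Control replicate 1 it was 0.51. Isg20, an exonuclease, lay at 7.69, 7.52 and 8.35 and at 6.99, 7.75 and 7.08 (-1.20 to 0.04).

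The enzymes that act on double-stranded RNA were steadier. Eif2ak2, the kinase PKR, lay at 10.38, 10.28 and 10.75 in Control and 10.43, 10.64 and 10.61 in TRAF3KO. Adar, an RNA editing enzyme, lay at 10.46, 10.52 and 10.83 and at 10.53, 10.75 and 10.75. The groups overlapped for both, with intervals of -0.19 to 0.37 and -0.19 to 0.33. The kept probes of Adar disagreed in sign (0.07, 0.24 and -0.32), and the same held for Usp18 and Oasl1, which makes 3 of the 12 members with several kept probes. Samd9l, an antiviral factor that restrains translation, lay at 14.84, 14.70 and 15.11 and at 14.72, 14.70 and 14.72.

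The guanylate-binding proteins, GTPases that coat intracellular pathogens and that respond strongly to interferon gamma, were slightly above 0. Gbp3 lay at 12.25, 12.57 and 12.50 in Control and 12.75, 12.82 and 12.50 in TRAF3KO, a difference of 0.25 ± 0.10 (SE; limma adjusted p = 0.26). Gbp2 lay at 10.91, 11.20 and 11.15 and at 11.42, 11.31 and 11.05. Groups of both overlapped through TRAF3KO array 3. Of the interferon-induced ADP-ribosyltransferases, Parp14 lay at 11.72, 11.69 and 11.90 and at 12.03, 11.84 and 12.03, a difference of 0.20 ± 0.09 (adjusted p = 0.30). Parp9 lay at 4.08, 5.75 and 5.03 and at 5.59, 5.06 and 5.68. Parp12 was dim, at 6.04, 4.24 and 5.39 and at 5.70, 3.54 and 0.00, and its difference of -2.14 (-5.17 to 0.89) includes 1 array at the floor.

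The remaining induced genes included Ifi27l2a, which encodes a small membrane protein. It lay at 13.20, 13.88 and 14.0003 in Control and 13.25, 13.91 and 13.92 in TRAF3KO. Array 1 of each group was low, and the difference was 0.002 (-0.46 to 0.47). Ifi35 differed by 0.06 (-0.23 to 0.35). Rtp4, a chaperone of receptors, lay at 5.60, 6.04 and 6.26 and at 6.62, 6.43 and 6.15, a difference of 0.43 (-0.33 to 1.20). The chemokine gene Cxcl10 read 0.00, 0.00 and 2.46 in Control and 3.96, 1.85 and 2.70 in TRAF3KO, never above the 40th percentile. Xaf1 exceeded that percentile on 1 array, at 4.10 on TRAF3KO array 2. Trim30a exceeded it on 2 Control arrays and fell just outside the filter, while Oas3 lay just inside. No probe carried the symbol Mx1, Mx2 or Ifi44.

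**Figure D2:**
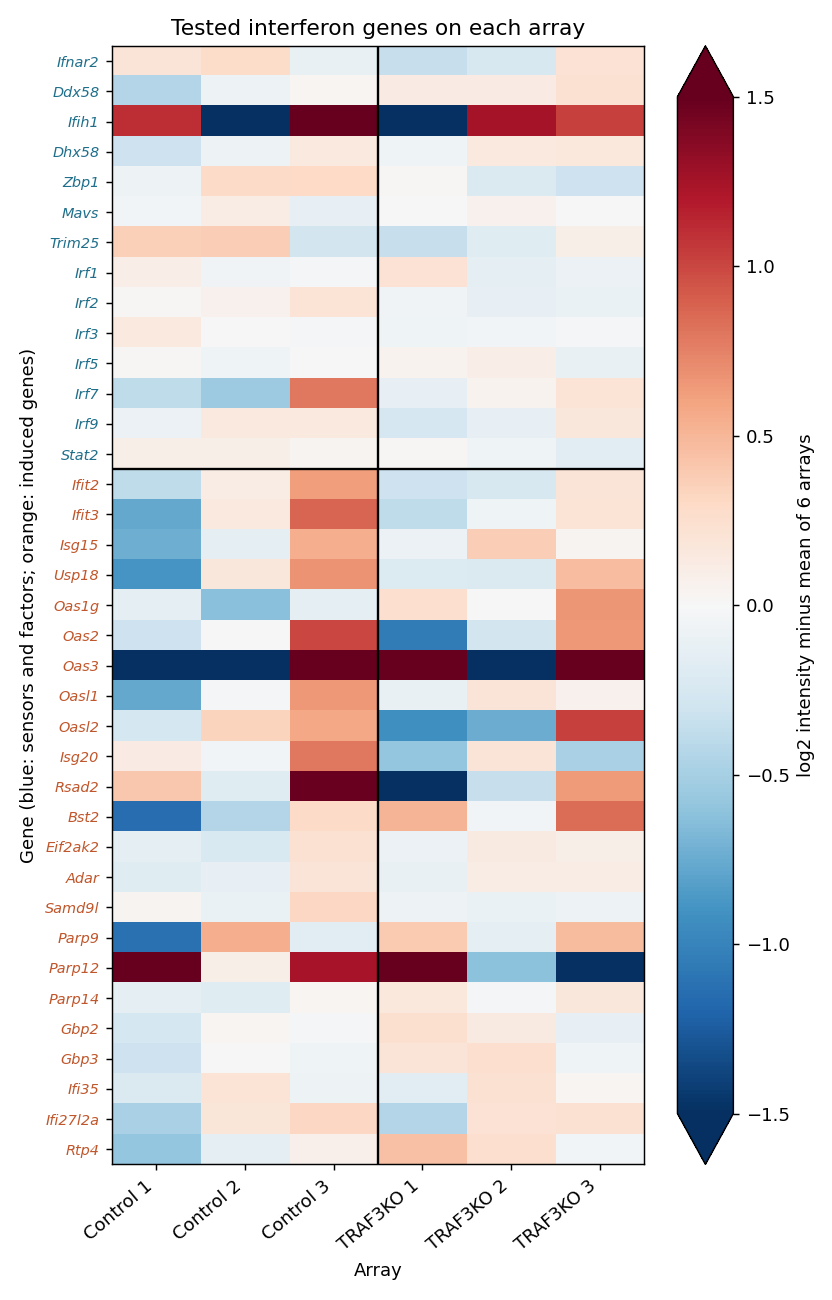
Log2 intensity of each tested gene on each array, minus the mean of its 6 arrays, with colours capped at 1.5. Gene names in blue are sensors, receptor chains and factors, those in orange are induced genes, and the induced block is mostly blue under Control 1 and mostly red under Control 3.

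The induced genes varied more between arrays of the same group than tested genes as a whole. Control array 3 was the highest of the Control arrays for 17 of 23 induced genes (73.9%) and the lowest for 0, while Control array 1 was the lowest for 16 (69.6%). Among all tested genes these shares were 32.2% highest for array 3 and 33.1% lowest for array 1, close to an even split. Control array 3 exceeded Control array 1 for 21 of 23 induced genes, with a median difference of 0.80, against 49.1% of all tested genes and a median of -0.003. The exceptions were Oas1g and Parp12. The pair of arrays was chosen after the values were seen, so these counts are a description.

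The largest gaps between Control arrays 3 and 1 among induced genes above the filter on all arrays were 1.64 for Ifit3, 1.56 for Usp18, 1.43 for Bst2, 1.41 for Oasl1, 1.32 for Oas2 and 1.29 for Isg15. Of the factors, Irf7 had a gap of 1.17, while Irf1, Irf3 and Irf5 had gaps of -0.12, -0.18 and -0.02. The sensors, receptor chains and factors were split, with 7 of 14 higher on Control array 3 and a median gap of 0.09. Restricting to genes with a mean of log2 8 or more left 14 of 15 induced genes higher on Control array 3, against 48.3% of all such genes.

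The TRAF3KO arrays showed a smaller spread of the same kind. TRAF3KO array 3 exceeded TRAF3KO array 1 for 18 of 23 induced genes, with a median difference of 0.18, against 49.4% of all tested genes. TRAF3KO array 1 was the lowest of its group for 12 of 23. The median range over 3 arrays of an induced gene was 0.85 in Control and 0.59 in TRAF3KO, against 0.37 and 0.36 over all tested genes and 0.31 and 0.27 over the sensors and factors. The range of the Control arrays exceeded the difference between the group means for 21 of 23 induced genes, against 72.8% of all tested genes. The median within-group SD was 0.43 for induced genes, 0.18 for sensors and factors and 0.21 for all tested genes.

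**Figure D3:**
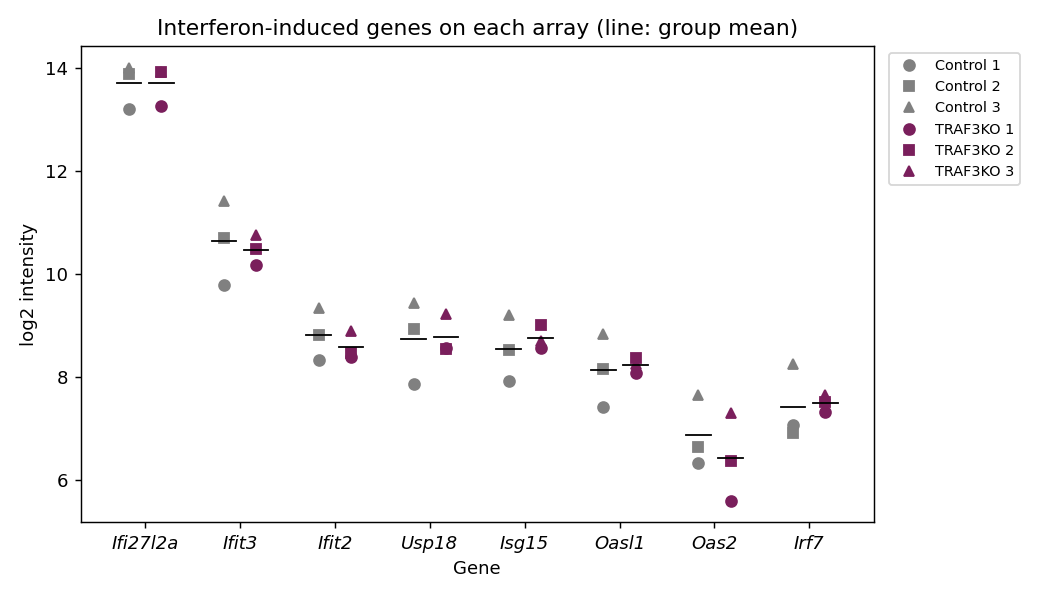
Log2 intensity of 8 interferon-responsive genes on each array, with Control arrays in grey, TRAF3KO arrays in purple, a symbol for each replicate number and a line for each group mean. The genes were picked after their values were seen to show the spread; for each, Control array 3 (triangle) is the highest Control value, and group means lie close together.

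Other measures were set beside this spread. By Xist and Eif2s3y, Control arrays 1 and 3 and TRAF3KO array 1 were of inferred male sex. Control array 2 and TRAF3KO arrays 2 and 3 were of inferred female sex, so sex was not balanced between the groups. Control arrays 1 and 3 shared an inferred sex. TRAF3KO arrays 1 and 3 did not, so their gap cannot be told apart from inferred sex. The part of sex in the spread between arrays was not tested. Of 15 monocyte and macrophage markers 11 had a probe, 2 of 9 tested (C1qc and Lyz2) were called lower, and none lay at the floor on all arrays. Fcgr4, Adgre1 and Ly6c1 were not lower, with differences of 1.51, 0.05 and 0.22, and were not called. For Fcgr4 every TRAF3KO array was above every Control array. The summed intensity of the monocyte and macrophage markers ran from 2054 to 5959 in Control and from 1803 to 2549 in TRAF3KO. Control array 3 was highest for these markers too, but Control array 2, not array 1, was lowest. Siglech, which defines plasmacytoid dendritic cells, a cell type rich in interferon-related transcripts, lay at 6.17, 7.41 and 6.19 in Control and 6.35, 6.32 and 7.13 in TRAF3KO. Of the list of 9 such markers 8 had a probe, and Klk1 lay at the floor on all arrays. Their summed intensity ran from 40662 to 45422 in Control and from 65366 to 70533 in TRAF3KO, with Ly6d and Tcf4, which B cells also express, called higher. The summed intensity of erythroid markers rose from array 1 to array 3 in both groups, while single markers did not all do so. Of 9 listed, 6 had a probe, none at the floor on all arrays, and 1 of 5 tested (Car2) was called lower. Their summed intensity was 76734, 76780 and 80073 in Control and 63031, 76288 and 77317 in TRAF3KO. Slc4a1, the anion exchanger of red cells, lay at 8.99, 9.23 and 10.42 and at 5.24, 8.40 and 9.81. Array 3 was above array 1 in both groups for Hba-a1, Alas2, Car2 and Klf1 too. The steps from Control array 1 to 3 were small for Hba-a1 (16.11 and 16.12) and Klf1 (6.23 and 6.28). Hba-a1 lay near the top of the values, and the erythroid sums came mostly from it. In Control, however, Hba-a1, Car2 and Klf1 were highest on array 2, and Alas2 was lowest there. The part of these cell types in the spread of the induced genes was not tested.

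**Figure D4:**
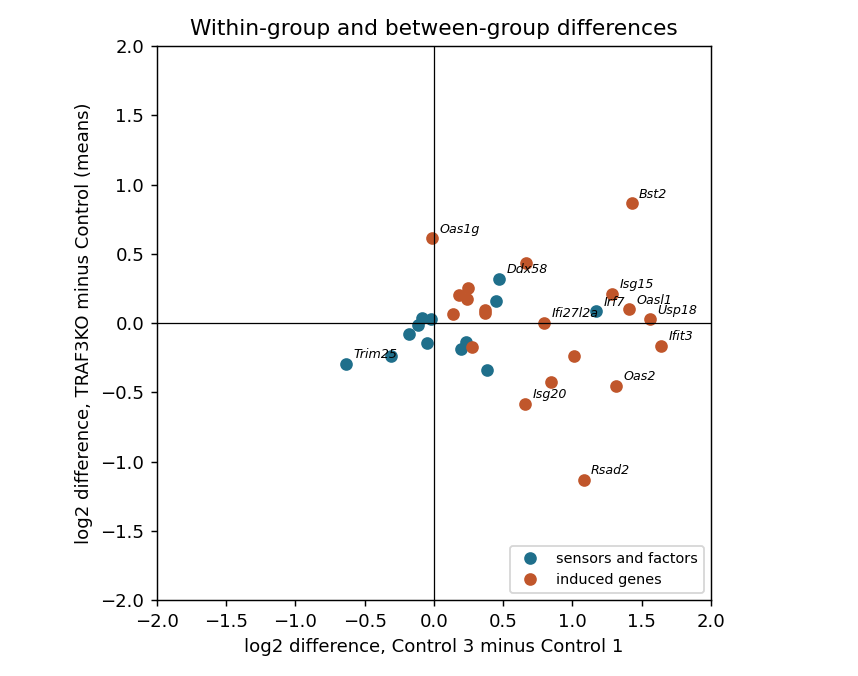
For the 33 tested genes with a mean of log2 6 or more, the difference between Control arrays 3 and 1 (horizontal, log2) against the difference between group means (vertical, TRAF3KO minus Control, log2), on equal scales. Induced genes such as Ifit3, Usp18 and Isg15 lie far to the right near a vertical value of 0, and sensors and factors gather nearer the origin, except Irf7 to the right and Trim25 to the left.

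Genes of the wider pathway were examined next, from a list of 138 interferon genes, kinases, adaptors, feedback regulators and further induced genes, of which 112 had a probe and 84 were tested. By limma 6 were called higher and 1 lower (8.33%, against 4.44% of all tested genes). The tested genes of the list were brighter, with a median level of 10.24 against 8.57 over all tested genes. Bright genes were called more often: 402 of the 5674 genes with a mean of log2 8 or more. The median log2 difference of the 84 was 0.01, against 0.004 over all tested genes. Tank, an adaptor that binds TRAF proteins and the kinase TBK1, lay at 12.13, 11.91 and 12.09 in Control and 12.90, 13.13 and 13.21 in TRAF3KO. It rose by 1.04 ± 0.09 (SE; adjusted p = 1.8e-04 by limma). Tnfaip3 and Cyld, which encode deubiquitinases that restrain both NF-kB and RIG-I signalling, rose by 0.67 ± 0.15 and 0.54 ± 0.09 (adjusted p = 0.030 and 0.0084). All 3 also belong to NF-kB control, so the list does not separate the pathways. Tnfaip3 was no longer called in 5 of 6 fits with 1 array removed.

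Among induced genes of the wider list, Helz2, an interferon-inducible helicase, lay at 11.22, 11.06 and 11.23 in Control and 11.98, 12.00 and 12.21 in TRAF3KO, a rise of 0.89 ± 0.09 (limma adjusted p = 3.6e-04). Uba7, the enzyme that activates ISG15 for attachment, lay at 12.76, 12.58 and 12.89 and at 13.22, 13.07 and 13.43. It rose by 0.50 ± 0.10 (adjusted p = 0.024), and 4 of 6 fits with 1 array removed no longer called it. Its substrate Isg15, described above, was not called. Ube2l6, which conjugates ISG15, lay at 8.30, 8.47 and 8.93 and at 4.38, 7.48 and 8.17, a difference of -1.89 ± 0.74 that was not called (adjusted p = 0.23).

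Cd274, which encodes PD-L1 and is inducible by interferon gamma, lay at 10.50, 10.44 and 11.02 in Control and 11.63, 11.12 and 11.26 in TRAF3KO. It rose by 0.69 ± 0.17 (limma adjusted p = 0.044), and 5 of 6 fits with 1 array removed no longer called it. Pml, the scaffold of nuclear bodies, lay at 13.35, 13.38 and 13.44 and at 13.08, 12.95 and 13.01. It fell by 0.37 on the log2 scale (SE 0.07, adjusted p = 0.0094). The calls of Tank, Helz2, Cyld and Pml stood in all 6 such fits. All 4 were lost under a variance model with no trend (adjusted p = 0.058, 0.058, 0.17 and 0.16 by limma), and Cyld and Pml also with no filter on dim probes (0.16 and 0.064).

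**Figure D5:**
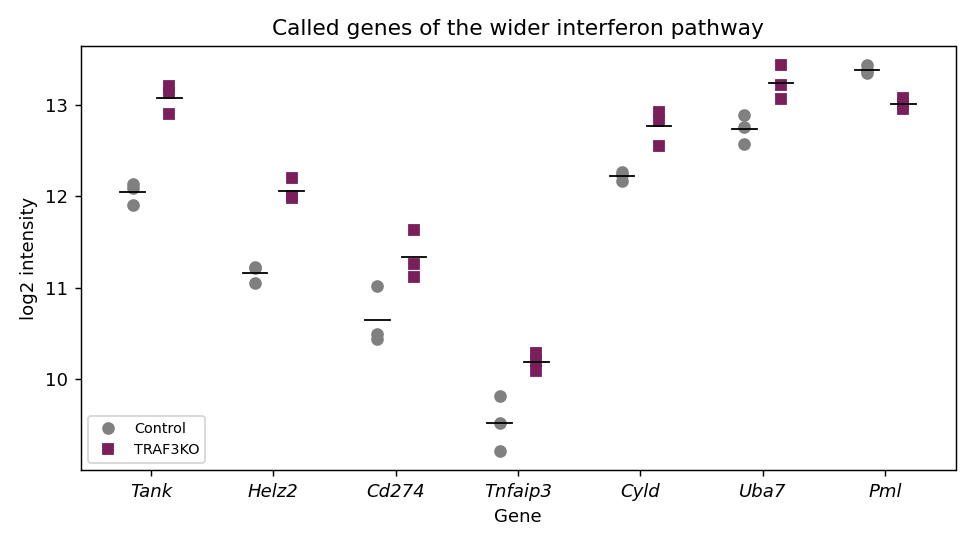
Log2 intensity on each array (points) and group means (lines) for the 7 called genes of the wider pathway list, Control in grey and TRAF3KO in purple. The groups do not overlap for any of the 7, and Pml is the gene that lies lower in TRAF3KO.

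The kinases between TRAF3 and the interferon genes differed little. Tbk1 lay at 13.24, 12.72 and 13.06 in Control and 13.04, 13.05 and 13.16 in TRAF3KO, with an interval of -0.17 to 0.33. Ikbke, its relative, had an interval of -0.32 to 0.45. The receptor kinases Jak1 and Tyk2 had intervals of -0.25 to 0.36 and -0.21 to 0.21. A change of 2-fold or more lay outside each of these intervals. Myd88, the adaptor of endosomal toll-like receptors, lay between 12.18 and 12.25 on all arrays. Tlr7, the endosomal receptor for single-stranded RNA, lay at 10.47, 10.87 and 10.95 and at 11.18, 11.30 and 11.20. Its difference of 0.47 ± 0.12 (SE) was not called (limma adjusted p = 0.062), though 3 of the 16 alternatives called it (lowest 0.026). Irf8 and Irf4, factors of B cell differentiation, differed by 0.24 ± 0.08 and 0.07 ± 0.08 (adjusted p = 0.14 and 0.70). Socs1, a feedback inhibitor, was dim and differed by -1.16 ± 0.89 (adjusted p = 0.58). No probe carried the symbol Tlr9, which was not analysed here.

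No interferon transcript was called different. Of 16 interferon genes listed 5 were tested and 0 called by limma, with 1 at an unadjusted p under 0.05. Ifna6 lay between 7.62 and 8.32 over all arrays, with a difference of -0.09 (-0.55 to 0.36). Ifng, the type II interferon made mainly by T and NK cells, lay at 6.66, 5.59 and 6.21 in Control and 5.10, 4.30 and 3.43 in TRAF3KO. Every TRAF3KO array was below every Control array, but the difference of -1.88 ± 0.61 (SE) was not called (limma adjusted p = 0.14). Of 11 T cell markers 9 had a probe and 0 of 6 tested were called. Their summed intensity was 319 to 458 in Control and 209 to 463 in TRAF3KO, with Lat and Cd8a at the floor on all arrays. Single markers in that list lay lower beside Ifng, though not called: Cd3d, a chain of the T cell receptor complex, read 4.87, 5.92 and 5.88 in Control and 0.68, 5.74 and 0.00 in TRAF3KO (difference -3.41, unadjusted p = 0.047 by limma). Thy1 differed by -3.12 (unadjusted p = 0.033 by limma). The other tested T cell markers were not lower: Cd3e, Cd3g, Cd8b1 and Cd5 differed by 0.09, 0.03, 0.06 and 0.17. Of 6 NK cell markers 0 of 4 tested were called and Ncr1 lay at the floor throughout. Their sums, 2517 to 3951 in Control and 2755 to 3333 in TRAF3KO, came mostly from Prf1 (11.18 to 11.86 over all arrays). Klrd1, an NK cell receptor chain, lay at 6.97, 7.14 and 7.18 and at 5.49, 4.09 and 6.92. Every TRAF3KO array was below every Control array for this gene (unadjusted p = 0.020 by limma). The other tested NK cell markers were not lower: Klrb1c, Gzma and Prf1 differed by 1.73, 0.94 and 0.004. The part of these cells in the Ifng values was not tested.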

How the data were processed

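The authors deposited log2 intensities of 25697 probes on 6 Illumina arrays, 3 per group. The submitters' processing notes list BeadStudio 3.2.3, with no step given for it. Array medians differed by at most 0.00705. The sources used here do not describe background correction, normalisation or the floor. No sequencing depth applies, and the number of arrays limits precision.

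Platform annotation named 23141 probes. Probes above the 40th percentile on at least 3 of 6 arrays were kept (15657 probes, 10304 genes) and tested by limma 3.58.1 under R 4.3.3, using lmFit and eBayes with trend and group as the sole term. P-values were adjusted by Benjamini-Hochberg over kept probes. The brightest probe stood for its gene. Intervals are 95% per gene, without adjustment.

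Members, roles and lists were chosen with earlier results of these data known. Values on each array were given for called genes, the largest rise and fall in each role and genes listed by name; the remaining array values, and the genes of the closing observations, were chosen after they were seen. Alternatives changed the filter, scaling, offset, variance model, array weights, probe choice, sex term, replicate block or left out 1 array. The sources used here do not say whether replicate numbers pair the arrays. Deviations of same-numbered arrays correlated at 0.044, 0.043 and 0.030 across probes. Those of differently numbered arrays correlated lower, between -0.054 and 0.013. A pairing by number was not settled by these values.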

Additional observations from a re-analysis of the deposited data

How the results depend on the processing

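The interferon genes had 0 called in each of the 16 alternatives run, over 586 member values, with a lowest adjusted p of 0.076 (Oas1g under the replicate block). Under that block 468 genes were called in all, 410 of them shared with the 457 called without it, and 8 genes of the wider pathway. No filter on dim probes left 114 genes called, and 2 of the wider pathway. Inferred sex as a term left 319 genes called, and 7 of the wider pathway. The induced genes then had 12 differences above 0 and 11 below, with a median of 0.06. A variance model with no trend left 65 genes called, and 0 of the wider pathway (adjusted p = 0.058 for Tank and Helz2, 0.17 for Cyld and 0.16 for Pml). Leaving out 1 array gave 227 to 382 genes called (227, 287, 282 and 278 without Control replicates 1 and 3 and TRAF3KO replicates 1 and 2) and 4 to 7 genes of the wider pathway, 4 without TRAF3KO replicate 3. The median of the induced genes ran from -0.10 to 0.23 in those fits, and was 0.002 with the mean of probes. Tlr7 was called with robust eBayes, with the replicate block and with an offset of 50 (adjusted p = 0.026, 0.044 and 0.047). Dim probes limit Ifih1, Oas3 and Parp12.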

Other observations

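Further interferon-responsive genes of the wider list, picked after their values were seen, were not called by limma. Ifi30, a thiol reductase of antigen processing, lay at 13.36, 13.51 and 13.25 in Control and 13.44, 14.37 and 14.33 in TRAF3KO, a difference of 0.68 ± 0.20 (SE; limma adjusted p = 0.098). Apobec3, a cytidine deaminase that restricts retroviruses, lay at 10.54, 10.07 and 9.85 and at 8.12, 10.26 and 7.82, a difference of -1.42 ± 0.50 (adjusted p = 0.17). Slfn1 was dim on some arrays and differed by -2.26 ± 1.21 (adjusted p = 0.40). Groups did not overlap for 25% of the 48 tested induced genes of the list, against 22.4% of all tested genes. The 48 were bright, with a median level of 10.24, and bright genes separated more often. The share was 28.7% among tested genes averaging at least log2 8, so 25% was no excess over bright genes. Sp110 was one of the listed genes without overlap, at 6.32, 5.84 and 6.35 and at 7.04, 6.94 and 6.72 (adjusted p = 0.24). Gbp5 and Gbp7, guanylate-binding proteins like Gbp2 and Gbp3, also had every TRAF3KO array above every Control array. Gbp7 lay at 7.48, 7.86 and 7.79 in Control and 8.26, 8.44 and 8.14 in TRAF3KO, a difference of 0.57 ± 0.18 (SE; limma adjusted p = 0.13), and Gbp5 differed by 0.33 ± 0.14 (adjusted p = 0.28). Nlrc5, the transactivator of MHC class I genes, lay at 9.60, 9.98 and 10.12 and at 10.39, 10.50 and 10.15, a difference of 0.45 ± 0.15 (adjusted p = 0.14). Sp100, a partner of PML in nuclear bodies, lay at 11.70, 11.42 and 11.73 and at 11.27, 11.33 and 11.39, lower by a mean difference of -0.29 ± 0.10 (adjusted p = 0.16).

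The order of the Control arrays seen in the induced members was also present in the wider list. Of its 48 tested induced genes, Control array 3 was the highest Control array for 26 (54.2%) and Control array 1 the lowest for 23 (47.9%). Ifitm3, an antiviral membrane protein, lay at 7.45, 8.06 and 9.21 in Control and 6.84, 8.13 and 8.46 in TRAF3KO. Lgals3bp, a secreted glycoprotein, lay at 7.95, 8.48 and 9.07 and at 8.70, 8.68 and 9.16. The chemokine gene Ccl5 lay at 8.27, 9.07 and 9.62 and at 8.17, 8.48 and 7.996, where TRAF3KO array 3 was not raised.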
